A study of Homo sapiens with 6 samples.

Results

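Enzymes that make and trim angiotensin peptides, the precursor they act on and the receptor for the active peptide were compared between stable HEK293 lines on Affymetrix HG-U133 Plus 2.0 arrays. The genes were ENPEP, ANPEP, LNPEP, ACE, MME, ECE1, DPP4, AGT and AGTR1, and the values used were those of all probe sets that the platform annotation assigns to exactly 1 of them. This gave 17 probe sets of 8 genes, out of 41751 probe sets and 18338 genes in the table. LNPEP had no probe set assigned to it by name and is not analysed here. The set was chosen by name with results of this same contrast in view, and its measured basis is the low ENPEP value in the myocilin line. The values of the members are therefore given as a description with their errors, without p-values.

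The control vector line and the myocilin vector line were each measured on 3 arrays. Both are HEK293 lines, an established line of human embryonic kidney cells, made to carry a Tet-On system in which doxycycline switches on the inserted gene, and both were kept in hygromycin B and G418. The protocol, worded alike for both, describes doxycycline at 0.2 or 1 µg/ml for 48 h, but not which dose each array received, and a description naming the drug stands only on the myocilin samples. The sources used here do not say whether a line is 1 clone or whether its arrays came from separate cultures, so the errors cover the spread between arrays, and that spread may be technical only. With 1 line per vector, myocilin, clone, drug exposure and any order of handling cannot be told apart.

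In the angiotensin system, angiotensinogen, the product of AGT, is cut to angiotensin I, and angiotensin-converting enzyme, the product of ACE, trims that to angiotensin II. Angiotensin II raises blood pressure and salt retention through the type 1 receptor encoded by AGTR1. Aminopeptidase A, the product of ENPEP, takes the acidic first residue off angiotensin II to give angiotensin III, and aminopeptidase N, the product of ANPEP, shortens that further. In the kidney, aminopeptidases A and N, neprilysin (MME) and DPP4 are known as membrane enzymes of the tubule brush border or glomerulus.

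Values are the authors' centred values, read as log2, so that 0 is a reference level the table does not state. A value shows how an array stood for that probe set and not how abundant the transcript was. Whether a value lies above background cannot be seen, and the markers of HEK293 cells cannot be checked for presence or absence on this scale. The induced gene, MYOC, read -6.71, -8.32 and -8.29 with the control vector and 0.21, 0.20 and 0.24 with the myocilin vector, which matches the labels. The standard deviation over probe sets was 0.169 to 0.197 per array, and arrays correlated at 0.409 to 0.464 within the control line, 0.513 to 0.608 within the myocilin line and -0.244 to -0.00516 between the lines. These are correlations of centred values, so a transcript's level common to all arrays does not enter them. They do not measure how alike the lines were as a whole. No pair of arrays held identical values. An exact 0 on at least 1 array was held by 8 of the 17 probe sets, and by 57.3% of all probe sets.

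ENPEP was about 4-fold lower in the myocilin line, AGTR1 and MME were lower by less, and the other 5 genes did not pass the threshold. In RNA from whole cultures, fewer cells with a transcript and less of it per cell cannot be told apart. A gene's value is the mean of its probe sets, and the threshold is a Benjamini-Hochberg adjusted p of 0.05 over all genes in limma. By that threshold 3 of 8 genes were lower and 0 were higher, where 7.35% of all genes were lower and 8.28% higher. At the level of probe sets, 4 of 17 were lower and 0 higher, where 5.56% and 5.46% of all probe sets were. At an unadjusted p under 0.05 in limma, 0 of 8 member genes were higher and 3 lower, where 16.3% and 13.7% of all genes were. At the same unadjusted p, 0 of 17 member probe sets were higher and 7 lower, where 13.1% and 12.6% of all probe sets were. Because the genes were picked with this contrast known, nothing is read from these counts or shares. The median difference, myocilin minus control, was -0.09 over the 8 genes and 0.02 over all genes.

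**Figure D1:**
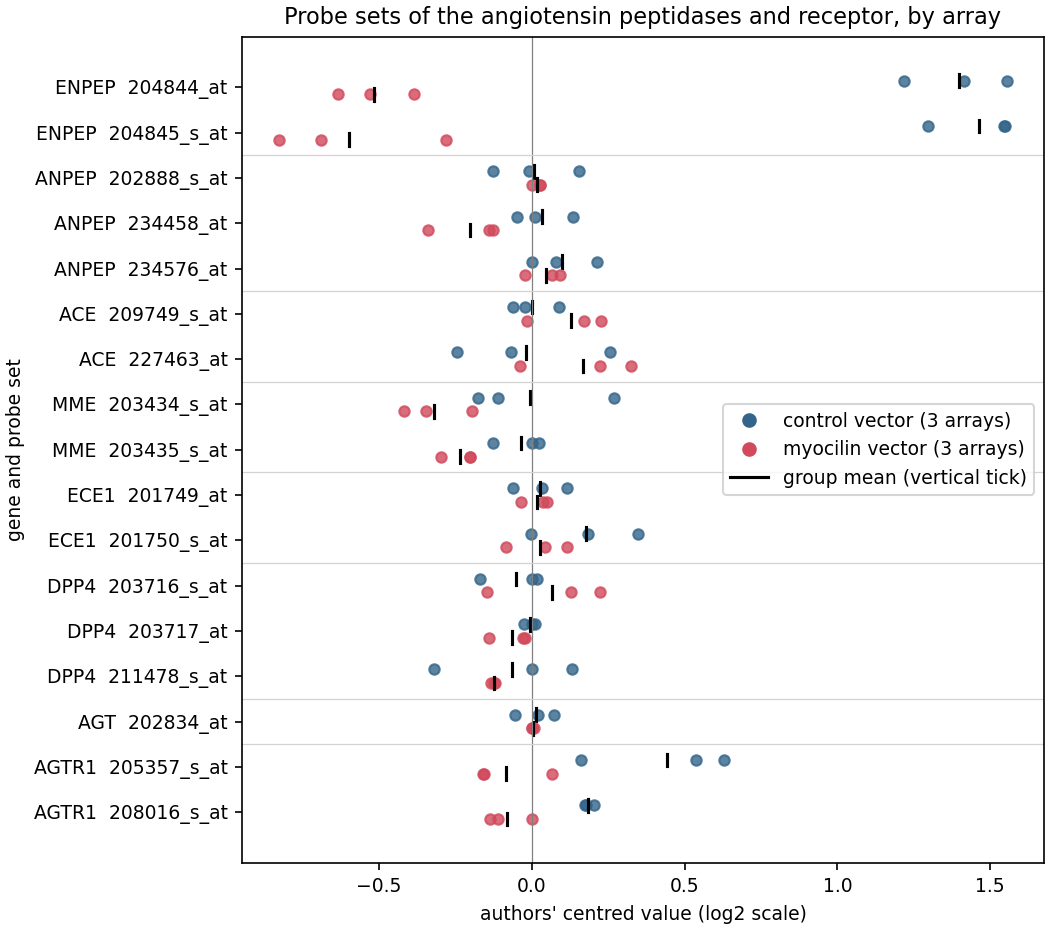
Authors' centred values (log2 scale, horizontal axis) of the 17 probe sets on the 3 control vector arrays (blue) and the 3 myocilin vector arrays (red), with vertical ticks at the group means. Both ENPEP probe sets stand above 1.2 on the control arrays and below -0.2 on the myocilin arrays, and for most other genes the points of the lines overlap.

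Aminopeptidase A was the member that differed most. The probe set 204844_at of ENPEP read 1.22, 1.41 and 1.56 with the control vector and -0.53, -0.39 and -0.64 with the myocilin vector. The probe set 204845_s_at of ENPEP read 1.30, 1.55 and 1.54 against -0.69, -0.28 and -0.83. Every control array was above the reference level and every myocilin array below it on both probe sets, and the groups were far from overlapping. On both, control array 1 was the lowest of the control arrays, myocilin array 2 the highest of its line and myocilin array 3 the lowest. The gene means were 1.43 ± 0.15 in the control line and -0.56 ± 0.20 in the myocilin line (SD, n = 3 each). The difference was -1.99 ± 0.11 (log2, SE), or 3.96-fold lower, with a 95% interval of -2.23 to -1.74, and the probe sets gave -1.91 and -2.06. Under quantile normalisation the difference was -2.66, or 6.31-fold lower. That setting also moved MYOC, from 7.99 to 5.09, so the sizes of these large differences depended on the normalisation. In the main fit, ENPEP had the second most negative difference among all genes.

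The ENPEP promoter is shown because its transcript differed most of the members, although the arrays do not measure promoter activity. The stretch is the 250 bases before the annotated start, at chr4:110475905-110476154 on the plus strand of GRCh38.p14, from RefSeq. It is printed 5′ to 3′ in lower case, and the capitals mark matches to the searched letters.
ENPEP: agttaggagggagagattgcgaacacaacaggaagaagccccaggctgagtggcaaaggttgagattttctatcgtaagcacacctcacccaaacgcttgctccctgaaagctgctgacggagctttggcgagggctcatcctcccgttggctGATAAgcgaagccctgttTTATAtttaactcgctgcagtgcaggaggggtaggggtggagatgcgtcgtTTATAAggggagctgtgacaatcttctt
The letters were searched on both strands of the 250 bases before each start. TATAA, letters of the TATA box, matched closest to the start on both strands in overlapping letters, at bases 27 to 23 before it on the plus strand and 28 to 24 on the minus strand, and again at 79 to 75 on the minus strand. GATAA matched once, at bases 97 to 93. Among 35116 such windows, 18.9% held TATAA and 20.4% held GATAA, so that each is common. Also searched were CCAAT, held by 32% of windows, the GC box letters GGGCGG, held by 42.6%, the AP-1 letters TGANTCA, held by 6.57%, and TGATGNAA, a form bound by ATF4 and C/EBP factors, held by 3.14%. None of these was in the ENPEP window. Of the 4 windows of MME, 0 held TATAA and 3 held GGGCGG, and the same counts held for the 4 windows of ECE1. ANPEP, LNPEP and ACE each held TATAA in 1 of 2 windows and GGGCGG in 1 of 2. The single window of DPP4 held GGGCGG and not TATAA, and the single window of AGT held TATAA and TGATGNAA. These are matches of letters and do not show sites in use.

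ENPEP, on whose low value the set is based, differed by more than any of the measured genes beside it on chromosome 4. Given that choice, the comparison describes the region and is not support. Of the 10 nearest measured genes, 5 on each side, 1 was lower, 0 were higher, and the differences ran from -0.57 to 0.17. The gene that passed was CFI, which encodes complement factor I, a protease that inactivates complement, and which lay 5 places away. CFI read 0.29, 0.28 and 0.48 with the control vector and -0.21, -0.33 and -0.12 with the myocilin vector, a difference of -0.57 ± 0.08 (SE, limma adjusted p = 0.00163). The adjoining genes were ELOVL6, a fatty acid elongase, at 0.15 ± 0.08 and FAM241A at -0.17 ± 0.07, neither past the threshold. With 1 probe set per gene by ID, FAM241A read -0.36 and AP1AR, 2 places away, -0.31, both past it beside CFI at -0.36, so that 3 of the 10 were lower. With array weights, GAR1, at 0.19, also passed. The growth factor gene EGF, 2 places away on the other side, read -0.10 ± 0.09. Over the 80 neighbours of all 8 genes, 5 were higher and 4 lower, or 9 in all, beside 15.6% of all genes in either direction.

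**Figure D2:**
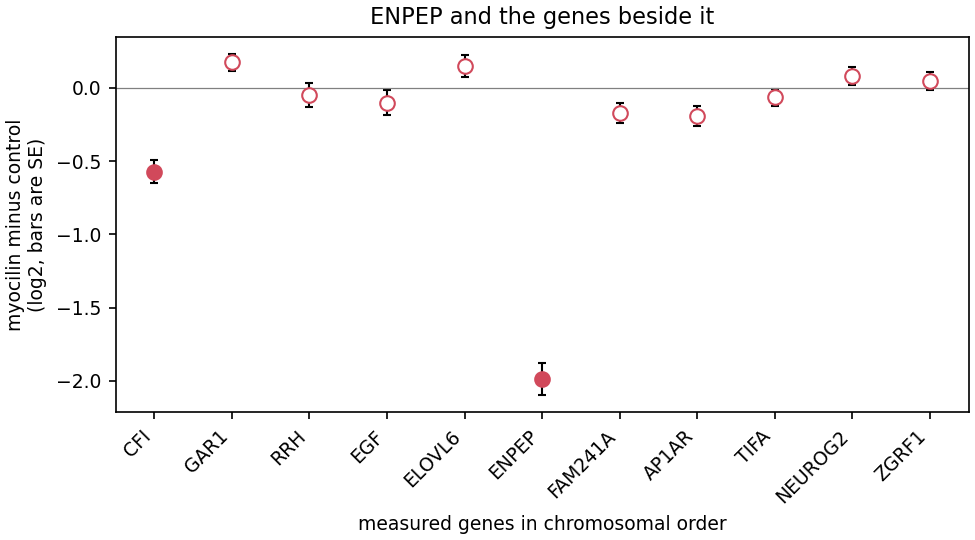
Differences, myocilin minus control (log2, vertical axis, bars are SE), of ENPEP and the 5 nearest measured genes on each side in chromosomal order. Filled points passed the adjusted threshold over all genes. ENPEP stands at -1.99, CFI at -0.57 and the other 9 genes between -0.19 and 0.17.

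The genes with patterns most like that of ENPEP were found by the Euclidean distance between values over the 6 arrays, after each gene was centred on its own mean. They were SLC7A3, a transporter of cationic amino acids, at a distance of 0.479, KCNK2, a potassium channel, at 0.518, LINC02806 at 0.648, SLC7A11, the cystine and glutamate exchanger, at 0.69 and TAF7L at 0.742. Pearson correlations with ENPEP were 0.962 to 0.989 over the 6 arrays, which fall into 2 groups, so that they describe mainly the gap between the lines. SLC7A3 lay near 0 on the control arrays, at 0.13, 0.14 and 0.00, and at -1.81, -1.75 and -1.69 on the myocilin arrays. KCNK2 lay above 0 in the control line, at 0.97, 0.87 and 1.11, and below it in the myocilin line, at -0.70, -0.68 and -0.70, as ENPEP did.

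AGTR1, the receptor gene, was lower in the myocilin line on both of its probe sets. The probe set 205357_s_at of AGTR1 read 0.16, 0.54 and 0.63 with the control vector and 0.07, -0.16 and -0.16 with the myocilin vector. The probe set 208016_s_at of AGTR1 read 0.18, 0.17 and 0.20 against 0.00, -0.14 and -0.11. The groups did not overlap on either, but on the former control array 1 lay close to myocilin array 1. The gene means were 0.31 ± 0.13 and -0.08 ± 0.10 (SD, n = 3 each). The difference was -0.40 ± 0.08 (log2, SE), or 1.32-fold lower, with a 95% interval of -0.58 to -0.22. The size depended on the probe set, at -0.53 ± 0.12 on the former and -0.27 ± 0.07 on the latter. The gene stayed past the threshold whichever array was left out, with differences of -0.47 to -0.34. Since the members were chosen with this contrast known, this describes the reliance on single arrays and is not support. Both probe set names end in _s_at, which on this platform marks probes that can match several transcripts, so AGTR1 could not be measured without such probe sets.

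AGT, the gene for the precursor, was measured by 1 probe set, 202834_at. AGT read 0.02, -0.06 and 0.07 with the control vector and 0.00, 0.00 and 0.01 with the myocilin vector. All values of AGT lay close to the reference level, and the myocilin arrays lay inside the control range. The difference of AGT was -0.01 ± 0.06 (SE), with a 95% interval of -0.14 to 0.12.

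ACE, the converting enzyme, was the only member gene with a positive difference. The probe set 209749_s_at of ACE read 0.09, -0.02 and -0.06 with the control vector and -0.01, 0.23 and 0.17 with the myocilin vector. The probe set 227463_at of ACE read -0.07, -0.24 and 0.25 against 0.22, -0.04 and 0.32. The lines overlapped on both, and control array 3 was the lowest of its line on the former and the highest on the latter. The gene means were -0.01 ± 0.12 and 0.15 ± 0.09 (SD, n = 3 each), and the difference of ACE was 0.16 ± 0.08 (SE), with a 95% interval of -0.01 to 0.33, not past the threshold.

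MME, which encodes neprilysin, the endopeptidase that degrades natriuretic peptides and makes shorter angiotensins, was slightly lower. The probe set 203434_s_at of MME read -0.18, -0.11 and 0.27 with the control vector and -0.20, -0.35 and -0.42 with the myocilin vector. The probe set 203435_s_at of MME read 0.02, -0.13 and 0.00 against -0.30, -0.20 and -0.20. The groups did not overlap on either, but control array 1 and myocilin array 1 were close on the former. The gene means were -0.02 ± 0.14 and -0.28 ± 0.03 (SD, n = 3 each). The difference of MME was -0.26 ± 0.07 (SE), or 1.19-fold lower, with a 95% interval of -0.42 to -0.09. The mean of the probe sets passed the threshold over genes, whereas neither probe set, at -0.31 ± 0.12 and -0.20 ± 0.07, passed the threshold over probe sets. MME stayed past the threshold in only 1 of the 6 fits that left out an array. That fit was without control array 2, at -0.31. The gene was not past it without control array 1, at -0.28, control array 3, at -0.18, or any myocilin array, at -0.27, -0.26 and -0.24 for arrays 1 to 3.

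ANPEP, the gene of aminopeptidase N, was measured by 3 probe sets that differed from each other. The probe set 234458_at of ANPEP read 0.01, 0.13 and -0.05 with the control vector and -0.14, -0.13 and -0.34 with the myocilin vector, without overlap. Its difference was -0.23 ± 0.09 and did not pass the threshold over probe sets. The probe set 202888_s_at of ANPEP differed by 0.01 ± 0.08 and 234576_at by -0.05 ± 0.08, with overlap on both. The gene difference of ANPEP was -0.09 ± 0.06 (SE), with a 95% interval of -0.23 to 0.05.

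ECE1, the enzyme that cuts big endothelin to the active vasoconstrictor, differed by -0.08 ± 0.08 (SE), with a 95% interval of -0.25 to 0.09. The probe set 201750_s_at of ECE1 read 0.35, 0.18 and 0.00 with the control vector and 0.04, -0.08 and 0.12 with the myocilin vector. The spread of the control arrays exceeded the gap between the means there, and 201749_at differed by -0.01 ± 0.08.

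DPP4, the membrane peptidase that removes dipeptides from incretins and other peptides, differed by -0.0003 ± 0.07 (SE), with a 95% interval of -0.17 to 0.17. Its 3 probe sets gave 0.12, -0.06 and -0.06, and the lines overlapped on each. The widest control spread was on 211478_s_at of DPP4, at 0.13, 0.00 and -0.32, where the myocilin arrays all lay between -0.13 and -0.12.

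Over the 8 genes, the groups did not overlap for 4, all of them lower in the myocilin line, where 16% of all genes were lower without overlap. The fourth, beside ENPEP, AGTR1 and MME, was ANPEP, whose gene means were separated by a narrow margin, the highest myocilin array at -0.0027 and the lowest control array at 0.0023.

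**Figure D3:**
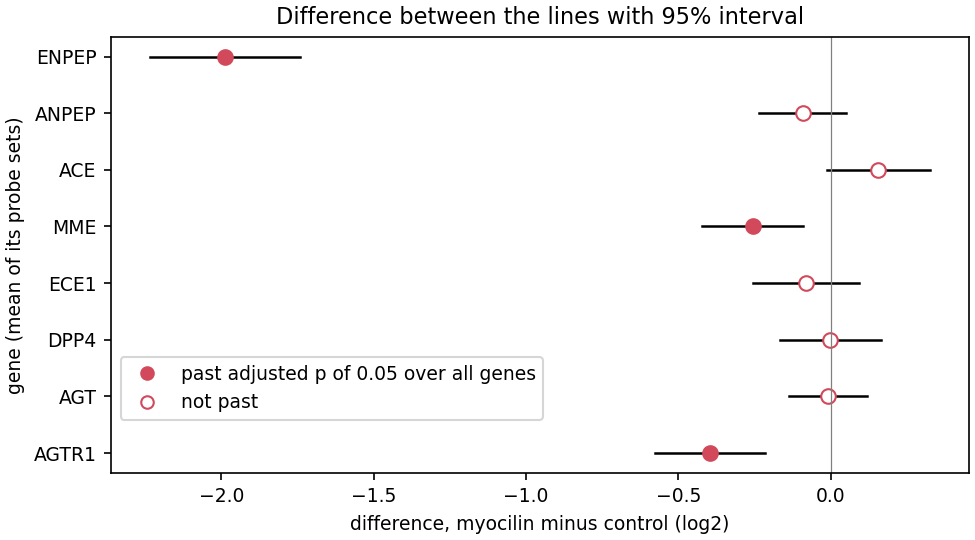
Difference, myocilin minus control (log2, horizontal axis), of each gene's mean over its probe sets, with the 95% interval from limma as a line. Filled points (ENPEP, AGTR1 and MME) passed the adjusted threshold over all genes, and the open points have intervals that include 0.

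Genes of related lists, which hold none of the members, moved in both directions. Some lists hold angiotensin enzymes and receptors. Others hold relatives of the members by family or activity, or other peptides that they cleave with their receptors, and are not angiotensin genes. Of 61 measured among 65 listed, 4 rose and 5 fell, beside 15.6% of all genes in either direction, and the median difference was 0.01 against 0.02 over all genes. The other listed genes are not analysed here. Adjusted p-values in the following lists are from limma over all genes.

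Of 11 other enzymes that form or cleave angiotensins, 2 rose and 1 fell (median 0.10). PREP, prolyl endopeptidase, which can make shorter angiotensins, read -0.06, -0.02 and 0.03 with the control vector and 0.40, 0.34 and 0.32 with the myocilin vector, and rose by 0.37 ± 0.06 (adjusted p = 0.00314). All 3 of its probe sets passed. THOP1, thimet oligopeptidase, another cytosolic endopeptidase, read 0.18, 0.13 and 0.19 against -0.21, -0.21 and -0.15 and fell by 0.36 ± 0.05 (adjusted p = 0.00291). PREP and THOP1 thus differed in opposite directions by a like amount, each without overlap between the lines. CTSA, cathepsin A, a lysosomal carboxypeptidase, rose by 0.22 ± 0.06 (adjusted p = 0.0351), but the call was lost in all fits that left out an array except that without control array 1, with differences of 0.19 to 0.25 over all alternatives. DPP3 read 0.16 ± 0.07 and did not pass (adjusted p = 0.151).

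Among 8 receptors, receptor partners and aldosterone genes, 0 rose and 0 fell by the adjusted threshold in limma, and 0 were higher and 1 lower at an unadjusted p under 0.05 (median -0.02). NR3C2, the mineralocorticoid receptor through which aldosterone acts, had the smallest p, at -0.19 ± 0.07 (adjusted p = 0.0986), without overlap between the lines. AGTR2, the type 2 receptor gene, read 0.04 ± 0.06 (adjusted p = 0.744), and CYP11B1 and ARAP1 read 0.10 ± 0.09 and -0.13 ± 0.07, neither past the threshold.

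Of the 9 other M1 aminopeptidases, the zinc enzyme family of ENPEP and ANPEP, 0 rose and 3 fell (median -0.08). Over all genes 8.28% were higher and 7.35% lower, and a trend of the family was not tested. TRHDE, which degrades thyrotropin-releasing hormone, read 0.13, 0.32 and 0.50 with the control vector and -0.15, -0.24 and -0.37 with the myocilin vector. TRHDE fell by 0.57 ± 0.10 (adjusted p = 0.00507), without overlap. ERAP2, which trims peptides in the endoplasmic reticulum for display on HLA class I, fell by 0.30 ± 0.07 (adjusted p = 0.0211), but its 5 probe sets ran from -0.63 to 0.10, and the probe set first by ID gave 0.10. The ERAP2 call was also lost without control array 2, control array 3 or myocilin array 3, with differences of -0.28 to -0.24. LTA4H, leukotriene A4 hydrolase, fell by 0.21 ± 0.06 (adjusted p = 0.0439), a call lost in all fits that left out an array except that without control array 1. RNPEP, aminopeptidase B, read -0.12 ± 0.07 (adjusted p = 0.278).

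Of the 5 other M13 endopeptidases, relatives of MME and ECE1, 0 rose and 0 fell in limma, and 0 were higher or lower at an unadjusted p under 0.05 (median 0.04). PHEX, known for its role in phosphate handling, read 0.18 ± 0.10 and ECE2 0.11 ± 0.09, with overlap between the lines for both. MMEL1 at -0.05 ± 0.07 and ECEL1 at -0.05 ± 0.10 also overlapped.

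Among 7 genes listed as relatives of DPP4 by family or, for DPP7, by dipeptidyl peptidase activity, 1 rose and 1 fell (median 0.02). DPP7, a lysosomal dipeptidyl peptidase, read -0.17, -0.32 and -0.34 with the control vector and 0.42, 0.50 and 0.48 with the myocilin vector, and rose by 0.74 ± 0.06 (adjusted p = 0.000184). Every myocilin array was above the reference level and every control array below it. Of its 3 probe sets 2 passed, and the set ran from 0.14 to 1.17. PREPL fell by 0.25 ± 0.06 (adjusted p = 0.03), a call lost in all fits that left out an array except that without control array 1. DPP9 read 0.18 ± 0.06 (adjusted p = 0.0639) and DPP6 -0.03 ± 0.06.

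Of 21 genes for other peptides that the members cleave and for their receptors, 1 rose and 0 fell (median 0.04). TAC1, the precursor of substance P, which neprilysin degrades, rose by 0.35 ± 0.10 (adjusted p = 0.0458). The myocilin arrays ranged widely for TAC1, at 0.53, 0.30 and 0.10, and the call was lost in all fits that left out an array except that without myocilin array 3. The bradykinin receptor gene BDKRB2 read 0.25 ± 0.08 (adjusted p = 0.0542), BDKRB1 0.10 ± 0.07 and EDN3, an endothelin, 0.12 ± 0.08, none past the threshold.

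Markers of kidney and vascular cells in which these enzymes are known were set beside the members. Of 13 proximal tubule markers, 1 rose and 0 fell, and their mean ran from -0.0197 to 0.0268 on the control arrays and from 0.0343 to 0.0733 on the myocilin arrays. Their median difference was 0.05, with 8 positive and 5 negative. AQP1, a water channel, rose by 0.26 ± 0.08 (adjusted p = 0.0484), a call lost whichever array was left out. CUBN, an endocytic receptor, at 0.28 ± 0.10, SLC9A3 at -0.17 ± 0.08 and SLC22A6 at 0.11 ± 0.06 did not pass. Of 6 podocyte markers, 1 rose and 0 fell, with means of -0.0376 to 0.0309 and 0.0297 to 0.0669. The median was -0.0003, with 3 positive and 3 negative differences. WT1, a transcription factor of podocytes, rose by 0.28 ± 0.08 (adjusted p = 0.0416), a call lost in all fits that left out an array except that without control array 1. CD2AP at 0.16 ± 0.07, PLA2R1 at -0.06 ± 0.05 and SYNPO at -0.07 ± 0.07 did not pass. Of 6 pericyte and smooth muscle markers, 1 rose and 0 fell, with means of -0.0363 to -0.0119 and 0.00791 to 0.0326. The median was -0.02, with 3 positive and 3 negative differences. NOTCH3, a Notch receptor, rose by 0.32 ± 0.06 (adjusted p = 0.00722) but read 0.20, not past the threshold, from the probe set first by ID. ACTA2 at 0.20 ± 0.06, RGS5 at -0.16 ± 0.06 and CSPG4 at -0.07 ± 0.07 did not pass. From the probe set first by ID, ACTA2 read 0.56 and passed. Of the 25 measured markers 3 rose and 0 fell in limma, where 8.28% and 7.35% of all genes did. At an unadjusted p under 0.05, 5 were higher and 1 lower, where 16.3% and 13.7% of all genes were. Among the markers 14 differences were positive and 11 negative, where over all genes 10141 were positive and 8197 negative. The median difference was 0.02 over the markers and 0.02 over all genes. The part of these markers in the members' differences was not tested.

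**Figure D4:**
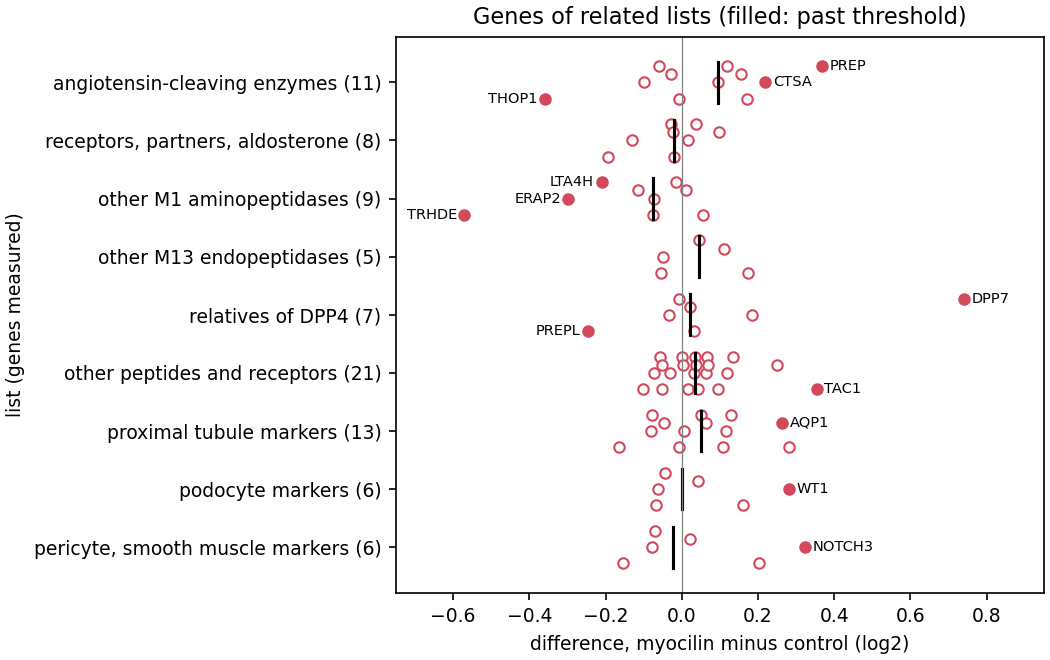
Differences, myocilin minus control (log2, horizontal axis), of the genes in 6 related lists and 3 marker lists, with the number measured in brackets and a bar at each median. Filled points with names passed the adjusted threshold over all genes. DPP7 lies farthest above 0, at 0.74, and TRHDE farthest below, at -0.57.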

How the data were processed

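The deposited table holds 41751 probe sets on 6 arrays, 3 per line. The authors deposited centred values, read here as log2 from their range, with every array at a median of 0. The background correction, summarisation and normalisation behind them are not given in the sources. Of the probe sets, 37460 had 1 gene in the platform annotation, 1728 had several and 2563 were not listed. Entrez identifiers of 37416 matched RefSeq (GRCh38.p14), and 44 kept the annotation's symbol. Probe sets were averaged per gene and compared with limma 3.58.1 under R 4.3.3, by lmFit and two-sided eBayes. Adjustment was by Benjamini-Hochberg over all 18338 genes or all probe sets, at a threshold of 0.05. The fit was tested on simulated data. Genes and lists were chosen with earlier results of these data known. Named were MYOC, the members, up to 4 genes per list by p, the 5 genes most like ENPEP and its neighbours, 5 on each side. Groups came from source names, and replicates were numbered in accession order. Alternatives were quantile normalisation, median centring, trend and robust eBayes, array weights, other choices of probe sets, a test with each gene's own variances and each array left out. The planned filter on dim probe sets could not be used on centred values, and the planned comparison of protein sequences was not run. Promoters were taken from RefSeq, where 8 of the 9 genes had an entry.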

Additional observations from a re-analysis of the deposited data

How the results depend on the processing

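No paired analysis was possible because the titles share no replicate numbers between the lines. Median centring changed nothing, since every median was 0. ENPEP passed in 12 of 13 alternatives (-2.66 under quantile normalisation to -1.90 without myocilin array 3), AGTR1 in 11 of 12 (-0.53 to -0.34) and MME in 4 of 12 (-0.31 to -0.18), and the other members in none. These counts include median centring, whose outcome was fixed in advance. They describe the dependence on settings of members chosen with this contrast known and are not support for them. With each gene's own variances, which leaves few degrees of freedom, 44 genes and 26 probe sets passed, with 0 member genes, 0 member probe sets, 0 genes of the related lists, 0 markers and 0 neighbours, and MYOC, at 7.99, did not pass. Of 18 other named genes past the threshold, 1, SLC7A3, passed there. Leaving out the _x_at and _s_at probe sets, which removes AGTR1 and MME, gave 1878 genes and 2695 probe sets, with 1 member gene, 1 member probe set, 0 markers and 5 neighbours. With 1 probe set per gene by ID, 5 genes of the related lists passed, and ERAP2 reversed to 0.10. The 1 marker that passed there was ACTA2, at 0.56, while AQP1, WT1 and NOTCH3 did not. Quantile normalisation left 1 marker. Leaving out each array gave 1613 to 2220 genes, 2281 to 3283 probe sets, 2 to 3 member genes, 2 to 3 member probe sets, 4 to 8 genes of the related lists, 1 to 3 markers and 4 to 7 neighbours. The fewest genes, 1613, were called without myocilin array 1. Precision is limited by 3 arrays per line, and the signal over background is unknown on centred values.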
